A study of Danio rerio with 15 samples.

Results

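In zebrafish sod1, gstp1.2, gstm.1 and aldh7a1 encode enzymes that handle oxygen radicals or reactive metabolites, and me3 encodes an enzyme that yields NADPH. They were chosen by their measured levels on these arrays, which showed a maternal supply, a higher level in MZdicer embryos than in wild type and a lower one again after miR-430 injection. A probe set counted as a member when the platform annotation gave it a single symbol and that symbol was 1 of the 5. Each gene had 1 such probe set, which made 5 of the 15502 probe sets tested, and all 5 carried values on every array. Since 3 contrasts served to choose the genes (MZdicer over wild type, MZdicer before and after injection, 16-cell stage over wild type), their values in these are given as a description without a test.

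RNA from whole zebrafish embryos, 20 pooled per array, was measured on 15 Affymetrix Zebrafish arrays in 6 groups. Embryos of the wild-type strain TLAB were sampled at the 16-cell stage (n = 2) and at 50% epiboly (n = 1), both without treatment. Wild-type embryos and MZdicer mutants, which have neither maternal nor zygotic Dicer and so cannot make mature microRNAs in the usual way, were sampled uninjected at 9 hours after fertilisation (n = 3 each). Embryos of both genotypes were also sampled after injection of miR-430 at the 1-cell stage (n = 3 each). The labels give no strain for the last 4 groups, no age for injected embryos, no dose of the injected miR-430 and no group injected without it, so injection and miR-430 cannot be told apart. Nothing in the labels says that replicates came from separate clutches, and the p-values therefore measure the spread between these arrays, which may be technical. Labelling started from an oligo(dT) primer, so the length of the poly(A) tail and the amount of a transcript cannot be told apart, nor can fewer cells of a type and less RNA per cell.

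The eggs of zebrafish are loaded with maternal mRNAs that run the first cell cycles and are then cleared as the embryo switches on its own genome. MiR-430, a microRNA family made in large amounts at that switch, binds many of these mRNAs in their 3′ untranslated regions and speeds up the loss of their poly(A) tails. Sod1 is the cytosolic copper-zinc superoxide dismutase, which turns superoxide into hydrogen peroxide. Gstp1.2 and gstm.1 are glutathione S-transferases of the pi and mu classes, which couple electrophiles to glutathione. Aldh7a1, an aldehyde dehydrogenase, oxidises reactive aldehydes and takes part in lysine breakdown, and me3, the mitochondrial NADP-dependent malic enzyme, yields NADPH. The mature miR-430 sequences and the untranslated regions of the 5 transcripts were not used here.

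The arrays had median deposited intensities from 155 to 196, and values within a group correlated at a Pearson r of 0.983 to 0.996 on the log2 scale. The dicer1 probe set, a check of the labels, read 389 to 478 in wild type and 510 to 543 after its injection, against 309 to 335 in uninjected and 265 to 307 in injected mutants. Of 10 maternal stage markers such as buc and dazl 9 were measured, and their summed level was 62728 and 63234 on the 16-cell arrays, 1206 to 1313 in wild type and 1009 to 1169 in MZdicer. In MZdicer 2 of the 9 were called higher (limma adjusted p under 0.05), dazl (log2 change 0.56) and ccna1 (0.88). Ddx4 (-1.10) and zar1 (-0.33) were called lower, and 5 were not called. Of 12 gastrula markers such as msgn1 and krt8 all were measured, with summed levels of 618 and 619 at 16 cells, 60812 to 62415 in wild type and 56813 to 58631 in MZdicer. Of these 5 were called lower in MZdicer, gsc (-1.13), sox32 (-1.09), chrd (-0.99), krt5 (-0.37) and tbxta (-0.27). Cdx4 was called higher (0.10), and 6 were not called, msgn1 and krt8 among them. At 9 hours 1 of the 9 maternal markers was at 0 on every array, and at 16 cells 1 of the 12 gastrula markers was. The embryos labelled 16-cell thus carried maternal and nearly no gastrula transcripts. The part of the lower marker sums of MZdicer in the results on the 5 enzymes was not tested.

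The superoxide dismutase transcript sod1 was abundant at 16 cells and low in wild-type gastrulae. Its deposited intensities were 3031 and 3138 at 16 cells and 317 at 50% epiboly. Wild type at 9 hours read 292, 245 and 246, and injected wild type 267, 268 and 299. The mutants read 1923, 1882 and 1960 uninjected and 288, 252 and 312 injected. All 3 uninjected MZdicer arrays lay far above the other 9 arrays of the 4 later groups, which overlapped one another. On normalised intensities sod1 was 6.67-fold higher in MZdicer than in wild type, the 18th largest log2 rise of all probe sets, and 6.72-fold lower after injection, the 8th largest fall.

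The 2 glutathione S-transferase transcripts differed in how their early and late levels compared. For gstp1.2 the intensities were 2747 and 2726 at 16 cells, 397 at 50% epiboly, 235, 214 and 187 in wild type and 257, 267 and 332 in injected wild type. Uninjected mutants read 1104, 1127 and 1125, and injected ones 269, 324 and 413. The 3 injected MZdicer arrays spread more widely than the uninjected ones, with normalised levels of 327 ± 68.1 (SD, n = 3) against 1072 ± 23.7. For gstm.1 the 16-cell arrays read 1621 and 1815 and the 50% epiboly array 489. Wild type read 551, 669 and 526, injected wild type 595, 560.5 and 568, MZdicer 2813, 2585 and 2550, and injected MZdicer 772, 676 and 790. In gstm.1 the MZdicer arrays were thus above the 16-cell arrays, whereas in gstp1.2 they lay well below them. The rise in MZdicer over wild type was 4.74-fold for gstp1.2 and 4.30-fold for gstm.1, and the fall after injection 3.28-fold and 3.66-fold. On the RefSeq gene order gstp1.2 lies next to gstp1.1, and gstm.1 is followed by gstm.2 and gstm.3. Whether the probes also bind transcripts of these neighbouring copies was not tested.

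Aldh7a1, the aldehyde dehydrogenase, was the dimmest of the 5 probe sets in MZdicer. It read 887 and 912 at 16 cells, 121 at 50% epiboly, 190, 147 and 145 in wild type and 206, 203 and 235 in injected wild type. MZdicer read 875, 919 and 819, close to the 16-cell arrays, and injected MZdicer 250, 231 and 283. It was 4.90-fold higher in MZdicer than in wild type and 3.36-fold lower after injection. Me3, the malic enzyme, read 2799 and 2883 at 16 cells, 543 at 50% epiboly, 237, 192 and 229 in wild type and 210, 194 and 212 in injected wild type. MZdicer read 1420, 1280 and 1340, and injected MZdicer 348, 278 and 351. Me3 was 5.60-fold higher in MZdicer than in wild type and 4.15-fold lower after injection. For both genes, and for gstp1.2, each injected MZdicer array lay above every uninjected wild-type array, as in 19.4% of all probe sets on normalised intensities.

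**Figure D1:**
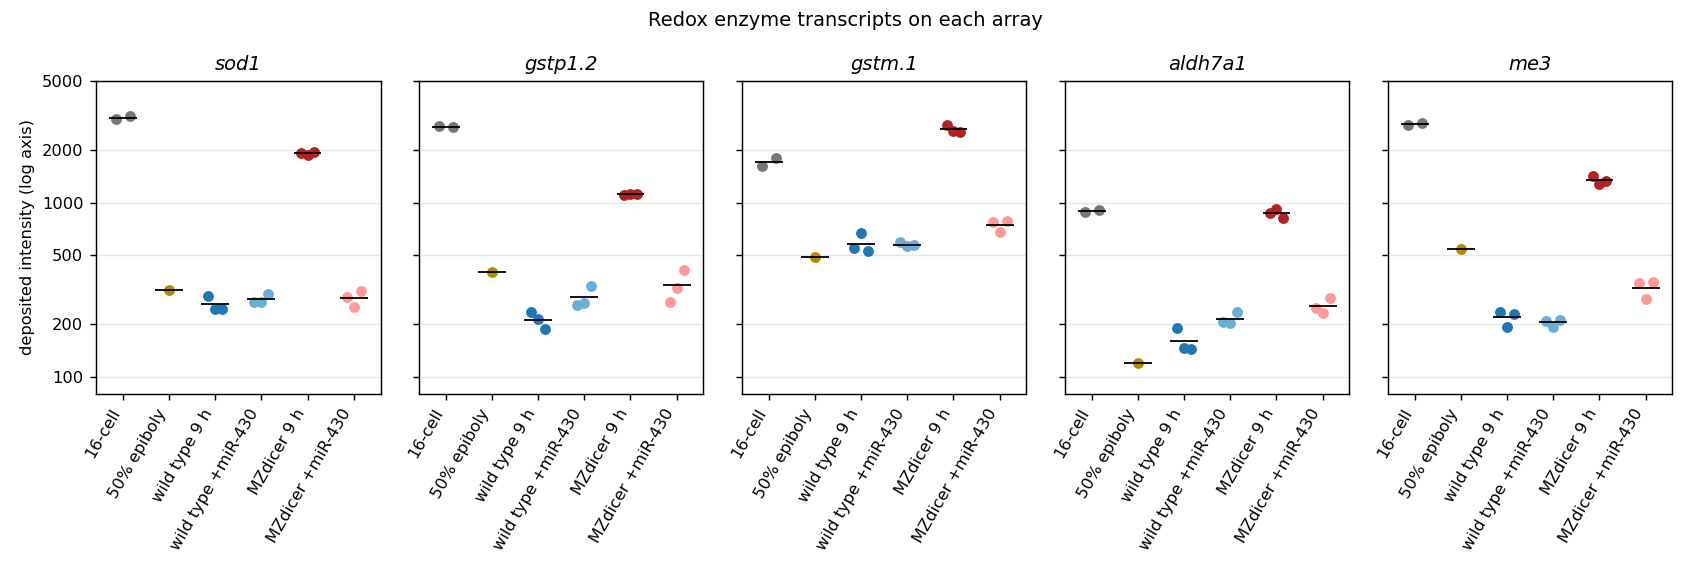
Deposited intensity (log axis) of the 5 redox enzyme transcripts on each of 15 arrays, 1 panel a gene. Points are arrays and black lines group means. In every panel the 3 MZdicer arrays stand above both wild-type groups and injected MZdicer, and only in gstm.1 are they all above the 16-cell arrays.

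In the comparison that chose them, all 5 were higher in MZdicer, where 22.2% of all probe sets were called higher at an adjusted p under 0.05 (limma) and 25.9% had every MZdicer array above every wild-type array. All 5 were lower in injected than in uninjected MZdicer, where 12.7% of probe sets were called lower and 18.1% had no overlap in that direction. All 5 were higher at 16 cells than in wild type at 9 hours, where 40% of probe sets were called higher and 45.5% did not overlap in that direction. These counts follow from how the genes were picked. No uninjected MZdicer array shared a fluidics run (arrays with 1 recorded hybridisation time) with an uninjected wild-type array. The MZdicer arrays before and after injection were all in 1 run, together with injected wild-type replicate 3. That array read 299 for sod1, 332 for gstp1.2, 568 for gstm.1, 235 for aldh7a1 and 212 for me3 as deposited. Each value was below every uninjected MZdicer array, which was not tested.

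The size of the net fall from 16 cells to wild type at 9 hours split the enzymes. Sod1 was 11.3-fold, gstp1.2 12.2-fold and me3 12.3-fold higher at 16 cells than in wild type at 9 hours, against 4.60-fold for aldh7a1 and 2.43-fold for gstm.1. Most of the decline had taken place by 50% epiboly on the single array of that stage. There all 5 were past a 2-fold fall on the log2 scale, as were 19.5% of all probe sets. The genes were chosen as high on the same 16-cell arrays, so a fall is in part built in. A closer comparison is with the 3252 maternal probe sets defined below. Their median share of the 16-cell level on the epiboly array was 27.7%, with an upper quartile of 41.1%. The folds between the 16-cell arrays and that array were 9.67 for sod1, 6.74 for gstp1.2, 6.14 for aldh7a1, 5.20 for me3 and 3.11 for gstm.1. From 50% epiboly to 9 hours me3 went down a further 2.36-fold and gstp1.2 1.80-fold, while sod1 differed by 1.17-fold. Gstm.1 and aldh7a1 were higher at 9 hours than on the epiboly array, by 1.28-fold and 1.34-fold. Me3 was the only 1 of the 5 past a 2-fold further fall on the log2 scale, which 2.9% of all probe sets showed. The 16-cell and epiboly arrays were scanned on 1 day and no 9-hour array was scanned with them, so stage and scan day cannot be told apart between either early stage and 9 hours.

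Expressed as a share of the 16-cell level, on intensities normalised over all 15 arrays, the transcripts in wild type at 9 hours stood at 8.86% for sod1, 8.23% for gstp1.2, 8.14% for me3, 21.8% for aldh7a1 and 41.2% for gstm.1. In MZdicer the shares were 59.8% for sod1, 40.3% for gstp1.2 and 47.1% for me3. They reached 113% for aldh7a1 and 173% for gstm.1. Both of these shares depended on scaling, at 96.8% for aldh7a1 and 154% for gstm.1 with the intensities as deposited. The log2 difference of gstm.1 between MZdicer and 16 cells was 0.79 after normalisation and 0.34 under median centring. Over the 3252 maternal probe sets, those called and at least 2-fold higher at 16 cells than in wild type, the median share in MZdicer was 27.2% with quartiles of 15.4% and 40.4%. Sod1, gstm.1 and aldh7a1 lay at or above the 92.9th percentile of that set, me3 at the 84.3rd and gstp1.2 at the 74.9th. High places in MZdicer follow from the choice of genes that stay high there.

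**Figure D2:**
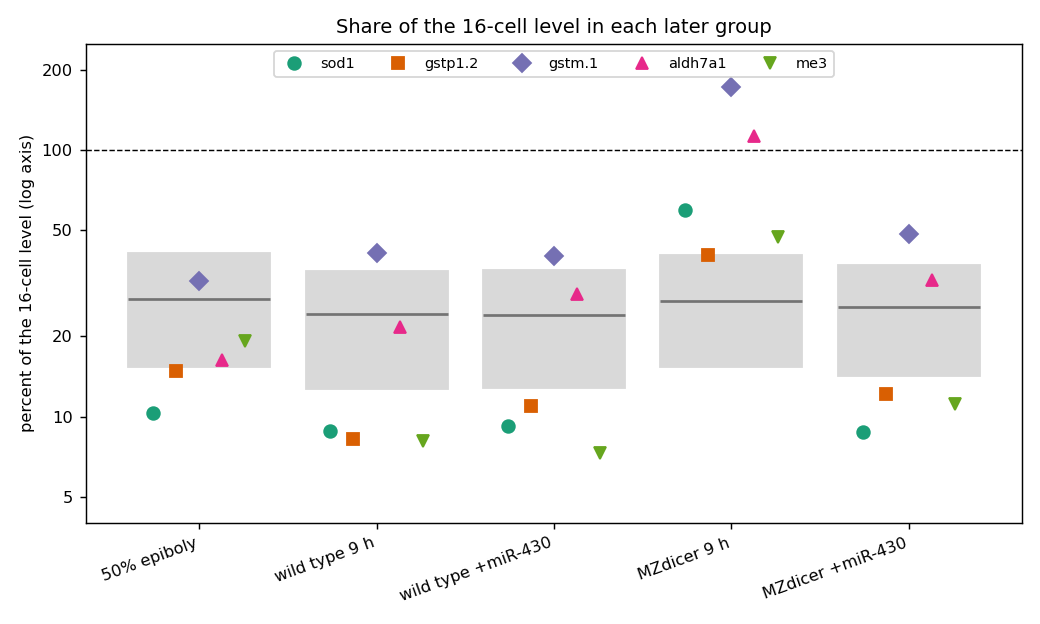
Level of each enzyme transcript in each later group as a percent of its 16-cell level (log axis), with the dashed line at 100%. Grey boxes span the quartiles and grey lines the median over 3252 maternal probe sets. The 5 enzymes were chosen for a high level in MZdicer, so their high places there follow from the choice. All but gstp1.2 lie above the box there, and gstp1.2 is just inside its upper edge of 40.4%. In MZdicer the 5 symbols run from 40.3% for gstp1.2 to 173% for gstm.1, and in wild type from 8.14% for me3 to 41.2% for gstm.1.

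In injected MZdicer most of the excess seen in MZdicer was gone for all 5. The shares below come from the 2 comparisons that chose the genes, so high values are in part built in. Shares for other probe sets were not computed. The share of the difference between MZdicer and wild type that was gone after injection was 100.1% for sod1, 94.7% for gstm.1, 92.4% for me3, 88.3% for aldh7a1 and 88.1% for gstp1.2. Injected MZdicer remained above wild type by 0.51 for aldh7a1, 0.49 for gstp1.2, 0.41 for me3 and 0.24 for gstm.1 on the log2 scale, and stood at -0.01 for sod1. The sod1 value took either sign across alternatives, with 0.12 for the intensities as deposited. The arrays of these 2 groups did not overlap for aldh7a1, gstp1.2 and me3 and overlapped for gstm.1 and sod1. All probe sets whose injected MZdicer arrays lay above every wild-type array made up 19.4%. This comparison is the sum of the 2 that chose the genes and was not tested for them.

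Injection into wild type, where miR-430 is already made, was a comparison that took no part in the choice, although its uninjected arrays did. Genes picked as higher in other groups than on these arrays tend to read low on them, which favours rises in this comparison. Aldh7a1 was higher in the injected embryos by 0.36 ± 0.10 (SE) on the log2 scale, 221 ± 17.8 against 170 ± 25.3 in normalised intensity (SD, n = 3 each, limma adjusted p = 0.0305). It was the only 1 of the 5 called, against 14.1% of all probe sets called, 7.34% higher and 6.81% lower. The call did not hold when any 1 injected array was left out, with adjusted p-values of 0.0590, 0.0528 and 0.123 for replicates 1 to 3. Leaving out uninjected replicate 2 gave 0.105 and replicate 3 gave 0.129. Uninjected replicate 1 was the only 1 of these 6 arrays scanned on another day, and no other array shared that day. With scan day as a block the change was 0.47 (limma adjusted p = 0.00559), which amounts to leaving out that array. Gstp1.2 differed by a similar 0.36 ± 0.13 that was not called (adjusted p = 0.0938), and in both genes every injected array lay above every uninjected one, as in 16.5% of all probe sets. For sod1 the change was 0.05 with a 95% interval of -0.10 to 0.21 (adjusted p = 0.714). For gstm.1 it was -0.02 with an interval of -0.21 to 0.16 (adjusted p = 0.901), and for me3 it was -0.13 with an interval of -0.31 to 0.04 (adjusted p = 0.306). No injected and uninjected wild-type arrays shared a fluidics run. With the run as a random block aldh7a1 had a limma adjusted p of 0.0441, in a fit that cannot separate run from injection.

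Between the 2 genotypes after injection, me3 was the only 1 of the 5 called. It was 1.49-fold higher in injected MZdicer, 315 ± 21.9 against 211 ± 8.32 (log2 difference 0.54 ± 0.08 SE, limma adjusted p = 3.71e-04, higher in 3 of 3 arrays than in any injected wild-type array). In this comparison 20.8% of all probe sets were called, 11.4% higher and the rest lower, and 17.6% had every injected MZdicer array above. Gstm.1, 724 ± 25.1 against 602 ± 18.3, also had every injected MZdicer array above every injected wild-type array. It missed the threshold (log2 difference 0.26, limma adjusted p = 0.0503). It passed with the intensities as deposited (adjusted p = 0.0113), with median centring (0.0159), with a pseudocount of 64 (0.0499), without the dimmest probe sets (0.0391) and with scan day as a block (0.0387). In all, 10 of 15 alternatives left it uncalled, among them every fit that left out 1 array (limma adjusted p of 0.0651 to 0.146). The differences were 0.15 for aldh7a1 with a 95% interval of -0.06 to 0.37, 0.12 for gstp1.2 with an interval of -0.16 to 0.41 and -0.06 for sod1 with an interval of -0.21 to 0.10. Their adjusted p-values were 0.310, 0.567 and 0.619. Only injected wild-type replicate 3 shared a fluidics run with the injected MZdicer arrays, and within that run me3 differed by 0.51 (adjusted p = 0.0317) and gstm.1 by 0.29 (adjusted p = 0.0842). The lone array is assumed to vary like the other groups. Injected MZdicer also took part in choosing the genes.

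**Figure D3:**
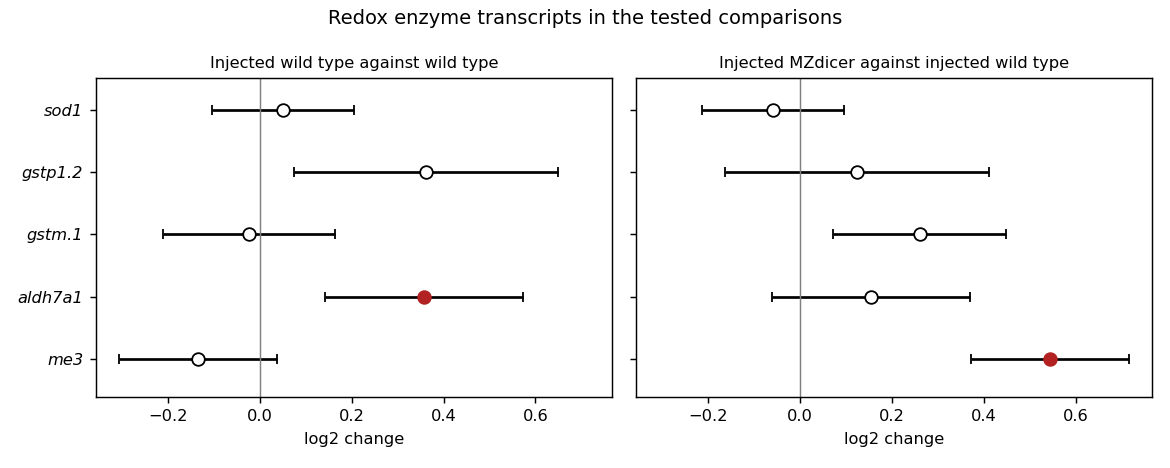
Log2 change with its 95% interval (bars) for the 5 enzymes in the 2 comparisons that did not choose them, from a limma fit of 12 arrays. The uninjected wild-type arrays on the left and the injected MZdicer arrays on the right did take part in the choice. Filled red points were called at an adjusted p under 0.05 over all probe sets: aldh7a1 at 0.36 on the left and me3 at 0.54 on the right.

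The 5 profiles were alike over the 15 arrays, as their choice implies, with Pearson correlations of log2 values from 0.80 between gstp1.2 and gstm.1 to 0.97 between gstp1.2 and me3. Sod1, gstp1.2 and me3 correlated with one another at 0.97 in each pair, and gstm.1 with aldh7a1 at 0.95. The 15 points fall into 6 groups, and the correlations describe mainly the levels of those groups. Among 5690 other named probe sets above the median intensity, the profile most like that of sod1 was that of pdcd6ip, which takes part in endosomal sorting (r = 0.995), followed by the lysosomal membrane gene laptm4a (0.994) and a second pdcd6ip probe set (0.992). Closest to gstp1.2 were got2a, the mitochondrial aspartate aminotransferase, the lysosomal protease gene ctsz (0.988 each) and dnajc5ga (0.987). Closest to gstm.1 were itm2cb (0.992), the dynein light intermediate chain gene dync1li2 (0.976) and the nuclear export gene cse1l (0.976). Aldh7a1 was most like laptm4b (0.992), akr1b1.2, an aldo-keto reductase gene (0.991), and dync1li2 (0.987). Me3 was most like the RNA-binding genes fmr1 (0.993) and caprin2 (0.992) and the germ plasm gene tdrd6a (0.986). Akr1b1.2 went from 573 at 16 cells to 32.3 in wild type, 546 in MZdicer and 60.02 in injected MZdicer in normalised intensity.

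The other genes of these pathways were read from 5 lists of 116 symbols, of which 54 were measured. Each was represented by its brightest probe set, whereas the shares over all probe sets include dim ones. The counts and shares below are thus not matched for brightness. In MZdicer 21 of the 54 were called higher and 9 lower, against 22.2% and 25.2% of all probe sets, and their median log2 change was 0.10 against -0.07 over all probe sets. After injection into MZdicer 6 rose and 11 fell, against 11.9% and 12.7% of all probe sets, with a median of -0.08 against 0.03. At 16 cells 28 were called higher and 17 lower than in wild type at 9 hours, against 40% and 35.6%. Of the 16 that were maternal by the 2-fold rule, 3 were also at least 2-fold higher in MZdicer on the log2(intensity + 16) scale, cat, prdx2 and txnrd3. Aldh3a2a, maternal as well, fell just short on that scale (0.97), which understates changes of dim probe sets, with levels of 49.5 in MZdicer against 17.8 in wild type. Prdx2 and txnrd3 were in addition at least 2-fold lower after injection. Over all probe sets 316 of the 3252 maternal ones were at least 2-fold higher in MZdicer and 121 also fell at least 2-fold after injection, which is 3.72% of the maternal set.

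Among the 12 measured genes of superoxide and peroxide removal, 7 were higher in MZdicer and 2 lower. Prdx1, a further peroxiredoxin gene, counted as not called by its brightest probe set (-0.11, adjusted p = 0.525), while its other 2 probe sets were called higher (0.68 and 0.87). The peroxiredoxin gene prdx2, whose product reduces hydrogen peroxide with thioredoxin, rose from 711 to 3344 (log2 change 2.21, adjusted p = 1.00e-09) and fell to 1370 after injection (-1.28). At 16 cells, normalised over all 15 arrays, it stood at 1930. The mitochondrial peroxiredoxin gene prdx3 rose by 1.32 on the log2 scale and the lipid peroxidase gene gpx4a by 1.45. Prdx3 stood at 963 after injection against 1095 before (adjusted p = 0.396), gpx4a fell by 0.30 and gpx1a, a glutathione peroxidase gene, by 0.43. Gpx8, a peroxidase gene of the endoplasmic reticulum, fell from 78.3 to 10.6 in MZdicer. Sod2, the mitochondrial counterpart of sod1, was named here after its values were seen. It went from 907 at 16 cells to 236 in wild type and was lower in MZdicer, 183 against 237 (log2 change -0.35, adjusted p = 0.00526).

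Of the 11 other measured glutathione genes 3 were higher and 3 lower in MZdicer, and none of the 3 rises reached 2-fold. The genes of the 2 subunits of glutamate-cysteine ligase, the first enzyme of glutathione synthesis, went opposite ways. Gclc, the catalytic subunit, rose from 273 to 462 (0.72) and gclm, the modifier subunit, fell from 501 to 238 (-1.02). Gclm rose again to 399 after injection (0.71), and gclc stood at 413 (adjusted p = 0.172). Glo1, glyoxalase 1, was lower in MZdicer by 0.73 and gsto2, an omega-class transferase gene, by 0.71. Mgst3a, a microsomal transferase gene, fell by 0.84 after injection, and gsr, glutathione reductase, by 0.35. The list also held gstp1.1, gstm.2 and gstm.3, for which no probe set carried a single symbol.

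The 11 other measured aldehyde dehydrogenase genes had 3 called higher and 3 lower in MZdicer. Aldh3a2a rose by 0.97, aldh9a1b by 0.72 and aldh1a2, which makes retinoic acid, by 0.65, and aldh9a1a.1 fell by 0.51. After injection aldh2.2 rose by 0.67 and aldh3b1 by 0.31, and aldh18a1, which acts in proline synthesis, fell by 0.54. Of the 10 other genes of NADPH supply 5 were higher in MZdicer and 0 lower. They included taldo1, transaldolase of the pentose phosphate pathway (0.82), the mitochondrial transhydrogenase gene nnt (0.73), mthfd2 (0.56) and pgd, 6-phosphogluconate dehydrogenase (0.39). Nnt fell by 0.59 and idh2 by 0.38 after injection, and nadk2 rose by 0.46. Pgls, a further gene of this list, counted as not called in MZdicer by its brightest probe set (0.17, limma adjusted p = 0.0752). Another of its probe sets was called higher there (0.52) and lower after injection (-0.45), and its dimmest was not called in either (0.38 and 0.04). Me1, the cytosolic malic enzyme and relative of me3, was named after its values were seen and stood at 303 at 16 cells, 30.6 in wild type at that scale, and 29.6 in MZdicer against 32.7 in wild type (adjusted p = 0.677).

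Of the 10 measured thioredoxin and Keap1-Nrf2 genes, the latter being the sensor and activator of the oxidative stress response, 3 were higher and 1 lower in MZdicer. Txnrd3, a thioredoxin reductase gene, stood at 6973 at 16 cells, rose from 1257 in wild type to 3278 in MZdicer (1.37) and fell to 1509 after injection (-1.12). Its other probe set moved by 1.21 and -1.02. Txnipa, which encodes a thioredoxin-binding protein, rose by 1.17 and fell by 1.14, and its 16-cell level was 28.4 against 961 in wild type, so that it was not maternal. Glrx3 rose by 0.24 in MZdicer, where its other probe set was not called (0.00, adjusted p = 0.980), and blvrb, a biliverdin reductase gene, fell by 0.82. Txnl1 rose by 0.23 after injection. Nfe2l2a, keap1a and the reductase gene nqo1 had log2 changes of 0.12, -0.21 and -0.19 in MZdicer. None of them was called (limma adjusted p of 0.546, 0.0833 and 0.178), and they were named after their values were seen. Whether the Nrf2 response as a whole differed was not tested.

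**Figure D4:**
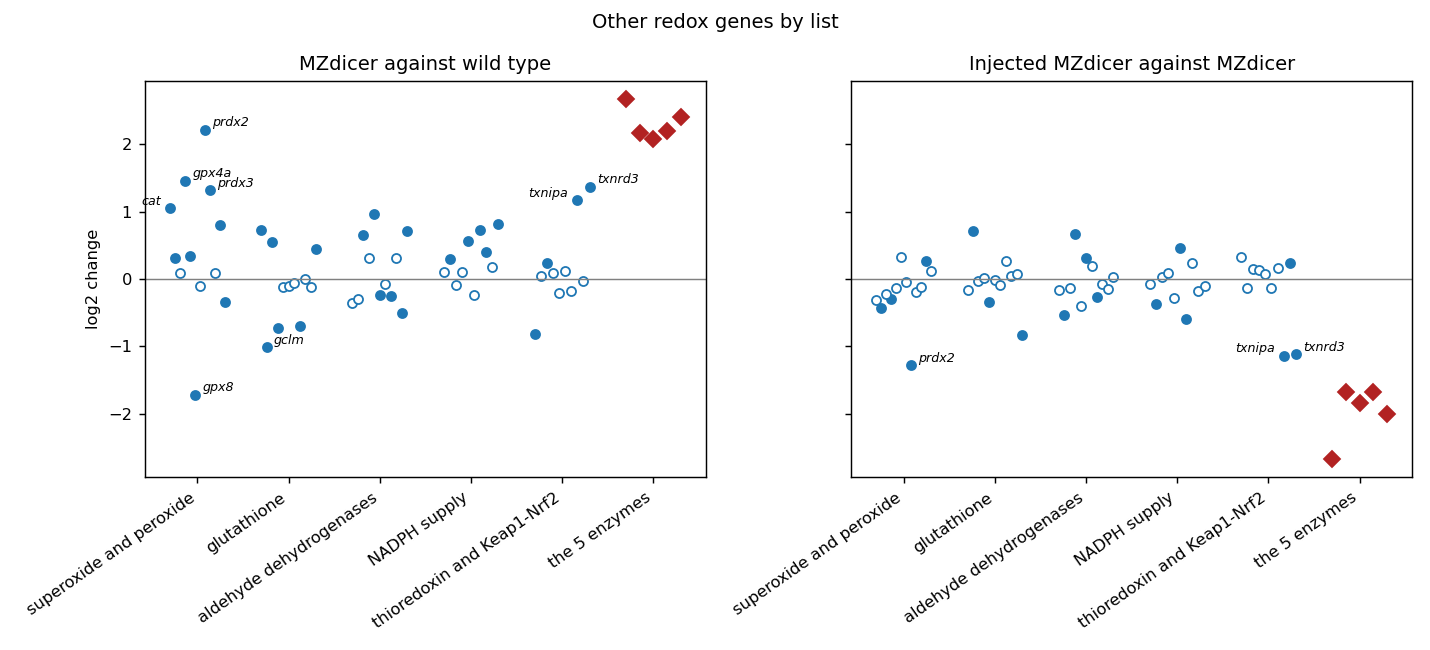
Log2 change of 54 other redox genes by list, for MZdicer against wild type (left) and injected against uninjected MZdicer (right). Filled points were called at an adjusted p under 0.05 and genes past 2-fold on this scale are named. Red diamonds are sod1, gstp1.2, gstm.1, aldh7a1 and me3 in that order, which were chosen for these values. Prdx2, at 2.21 on the left, lies above gstp1.2, gstm.1 and aldh7a1, and at -1.28 on the right it falls less than all 5.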

How the data were processed

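Per the labels, oligo(dT)-primed cDNA from the total RNA of 20 embryos per array was transcribed into biotin-labelled cRNA. The authors deposited 1 linear intensity per probe set. Summarisation, background correction and scaling: not given in the sources used here. Of 15617 probe sets, 115 controls were left out. Linear intensities were quantile normalised over the 12 arrays of the 4 genotype and injection groups, and over all 15 for comparisons with the earlier stages. Negative values became 0 and 16 was added before taking log2, which understates changes of dim transcripts. Levels called deposited are as in the files. The rest are normalised, and folds are ratios of group means, while rules of 2-fold apply on the log2 scale.

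All tests came from limma 3.58.1 in R 4.3.3, with a mean-variance trend in eBayes, with Benjamini-Hochberg adjustment over 15502 probe sets and calls at an adjusted p under 0.05. The 4 groups were fitted together (8 residual degrees of freedom), and the 16-cell stage in a fit of all 15 arrays (9). The fit was tested on simulated data. Precision is limited by how many arrays a group has.

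The 5 genes and the redox lists were chosen with earlier results of these data known. A listed gene was represented by its probe set of highest mean intensity. Text names up to 4 called genes a list with the largest change in MZdicer and up to 3 after injection, and the 3 most correlated probe sets of each enzyme with clone-type names left out. Symbols came from the platform annotation, updated by Entrez identifier through RefSeq (GRCz12tu). No coordinates are given. Per the file headers the arrays came from 3 scan days and had 5 recorded hybridisation times. Arrays that share 1 such time are called a fluidics run here, a name given in this report. Alternatives tried were median centring or no normalisation, pseudocounts of 1 and 64, a filter on the dimmest 40%, replicate number, scan day or run as a block, and leaving out each array. Same-numbered replicates did not deviate together (r of -0.229 to 0.257 between groups), so the numbers were not taken as pairs.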

Additional observations from a re-analysis of the deposited data

Results flagged for a closer look

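For 2 of the 5 transcripts the injected arrays lay on opposite sides of the uninjected arrays in the 2 genotypes. For gstp1.2 the 3 injected MZdicer arrays lay below all uninjected MZdicer arrays, whereas the 3 injected wild-type arrays lay above all uninjected wild-type arrays, with a log2 change of 0.36 in wild type that was not called (limma adjusted p = 0.0938) and -1.69 in MZdicer. For aldh7a1 the same held, with 0.36 in wild type (limma adjusted p = 0.0305, lost in 5 of the 6 fits that left out 1 array and with the replicate block) and -1.69 in MZdicer. Of all probe sets, 16.5% had every injected wild-type array above every uninjected one. The fall in MZdicer was a criterion of choice, and the choice also favoured low values on the uninjected wild-type arrays. The difference between the genotypes was not tested, because the change in MZdicer had chosen these genes. No group had 4 or more arrays, so single arrays that stand apart were not looked for by a rule.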

How the results depend on the processing

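The direction of all 5 enzymes held under every alternative run in the 3 comparisons that chose them. That follows from the large changes for which the genes were picked and is no separate support. In injected against uninjected wild type, the count of 1 called enzyme became 0 with the replicate block (aldh7a1 adjusted p = 0.0537) and ranged from 0 to 1 over the arrays left out. In injected MZdicer against injected wild type, 2 of the 5 were called in place of 1 with the intensities as deposited, median centring, a pseudocount of 64, without the dimmest 40% and with scan day as a block. The sign turned for sod1 in that comparison with the intensities as deposited (0.026), for gstp1.2 with fluidics run as a block or within 1 run (-0.084 each) and without injected MZdicer replicate 3 (-0.0064, range -0.0064 to 0.29), and for gstm.1 in wild type without uninjected replicate 2 (0.10, range -0.089 to 0.10). None of these was called. Injected MZdicer minus wild type for sod1 (-0.01) ranged from -0.049 to 0.12 over all alternatives. MZdicer minus the 16-cell level turned for aldh7a1 as deposited (-0.047) and under median centring (-0.33). The counts of other redox genes ranged, over the arrays left out, from 6 to 11 for falls after injection into MZdicer (6 without MZdicer replicate 2) and from 5 to 8 for rises in injected wild type (5 without uninjected replicate 3, against 9). The causes were not tested.

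Over all probe sets 65.0% of calls were higher in MZdicer with the intensities as deposited and 46.9% after normalisation, and 71.0% against 54.7% in injected MZdicer against injected wild type, 69.0% against 52.1% in injected MZdicer against wild type. In injected wild type the share was 40.8% under median centring against 51.9%. The median of all log2 changes in MZdicer was -0.12 under median centring, and at 16 cells -0.15 as deposited against 0.08. Some counts over all probe sets moved by over 1.5 times. As deposited the lower calls were 2294 against 3900 in MZdicer. In injected MZdicer they were 868 against 1465 beside injected wild type and 1430 against 2323 beside uninjected wild type. The higher calls at 16 cells were 3523 against 6202 without the dimmest 40%, where fewer probe sets were tested. Between the injected genotypes all calls were 1231 against 3232 with run as a block (710 of them higher and 521 lower). They also fell within 1 run, which held 1 injected wild-type array. Without injected MZdicer replicate 3 the higher calls between the injected genotypes were 1176 against 1767. On injection into wild type 1346 were called without uninjected replicate 3 against 2193 (720 against 1138 higher, 626 against 1055 lower), and 702 lower without injected replicate 2. With the replicate block, other redox genes called higher numbered 7 against 9 in injected wild type and 7 against 6 in injected MZdicer against MZdicer. The block changed no other call of the 5 enzymes in the 2 tested comparisons.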

Other observations

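Injection into wild type also moved other redox genes, which were named after their values were seen. Of the 54 measured, each by its brightest probe set, 9 were called higher and 8 lower. Of all probe sets, dim ones included, 7.34% and 6.81% were. The largest falls were in the mitochondrial superoxide dismutase gene sod2, from 237 to 119 (log2 change -0.91, limma adjusted p = 3.02e-05), and in cat, the peroxisomal catalase, from 89.7 to 43.4 (-0.83). The largest rise was in gpx4a, from 723 to 1367 (0.91), followed by aldh1a2 and prdx5, at 0.67 each. Aldh6a1 and aldh18a1 fell by 0.80 and 0.78. No wild-type group was injected without miR-430, and injected embryos have no stated age. The injected and uninjected wild-type arrays shared no fluidics run, so injection, age, run and miR-430 cannot be told apart here.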
